A study of Mus musculus with 10 samples.

Results

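In mouse embryonic stem cells whose only SET protein came from an inducible transgene, 986 regions with reproducible peaks of the HA-tagged protein lay within the bodies of protein-coding genes. To find them, the peaks of 4 libraries were merged where they shared at least 1 bp, which gave 37661 regions on the 17 autosomes analysed. Of these, 4917 were reproducible, meaning that both libraries of SETα or both libraries of SETβ had a peak in the region. A reproducible region was placed in a gene body when its midpoint lay inside a protein-coding gene of assembly GRCm38 and more than 1 kb from every end of any annotated gene. This held for 986 of the 4917 reproducible regions (20.1%). The number rests on the peak threshold and on SETα: it was 430 when peaks had to reach a −log10 q of 1.3, 56 at 5, and 151 or 152 without SETα replicate 1 or 2, when the SETβ pair alone remained. A further 3185 had their midpoint within 1 kb of a gene end, and 746 lay outside coding genes and away from gene ends. The peaks that chose these regions also supply their values in the 4 libraries, so those values are a description and carry no test.

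The cells were KH2 embryonic stem cells, a mouse line built to take up a single doxycycline-inducible transgene at a defined site. In the SETα and SETβ addback groups the lines KH2 SET-KO pBS31-HA-SETa and KH2 SET-KO pBS31-HA-SETb lack endogenous SET (SET KO) and express the HA-tagged isoform. In the SETα and SETβ overexpression groups the lines KH2 pBS31-HA-SETa and KH2 pBS31-HA-SETb express the same transgenes and keep their own SET, here called SET wild type. All 4 groups received 1 µg/ml doxycycline for 24 h, grew on feeder fibroblasts that were depleted before harvest, and were crosslinked with DSG, which links protein to protein, followed by formaldehyde. Chromatin was precipitated with an HA antibody in 2 libraries per group. The groups are thus separate lines, so line and group cannot be told apart, and nothing in the labels says that the libraries of a group came from separate cultures, so p-values measure only the spread between these libraries. The series also has 2 SET KO samples without doxycycline, which were not analysed here, and no level from cells without the tagged protein stands beside the values.

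SET, also called TAF-I or I2PP2A, is a histone chaperone of the NAP family. It belongs to the INHAT complex, which covers histone tails and keeps acetyltransferases from them, and it inhibits the phosphatase PP2A. Its isoforms are made from alternative promoters and differ at the amino terminus, with SETα prevailing in embryonic stem cells and SETβ in differentiated cells. A gene can be transcribed from several starts, and a start used inside the outermost extent of the gene lies in the gene body by position although it is a promoter.

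The label "gene body" was therefore checked against transcript starts. RefSeq's promoter table of assembly GRCm38.p6 lists starts with 300 bases around each, and it gave 26850 starts on 16 of the 17 autosomes, 3196 of them inside a coding gene and more than 1 kb from every gene end (inner starts). Of the 961 gene-body regions on those chromosomes, 324 had their midpoint within 1 kb of a listed start, or 33.7% (Wilson 95% interval 30.8% to 36.8%). Over all 11923 merged gene-body regions on those chromosomes, reproducible or not, the share was 12.1%, and over the 10962 that were not reproducible it was 10.2% (9.62% to 10.8%). Only 0.804% of gene-body sequence lies that close to a listed start. In 321 of the 324 cases the start belonged to the host gene. The median distance from region midpoint to start was 222 bp. The share at a listed start depended on the settings. It was 57.1% when peaks had to reach a −log10 q of 5, and 18.2% within 250 bp of a start. The name "gene body" thus holds for all 986 regions by outer gene ends, and 324 of them lie at a promoter by the listed starts. Another 455 lay farther than 1 kb from any listed start in hosts that have one, and the remaining 207 lay in hosts without a listed start, including all 25 regions on the chromosome with no listed start.

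The starts under the strongest regions are shown first, since they carry the pattern described below. Strength is the smaller −log10 p of both libraries of an isoform, or the higher of these where both isoforms qualify. Each line gives 120 bases before and 30 bases from the start, 5′ to 3′ on the strand of the gene, from RefSeq's GRCm38.p6 table. Capitals mark CCGGAAG, a core recognised by ETS-family transcription factors, and GGAACC, a 6-base word that was picked after 8-base words common in the strongest of these starts had been looked at. Both were searched on both strands, and matches of different words can share up to 2 bases at their ends.
Dcaf10 (chr4:45341981-45342130, plus strand): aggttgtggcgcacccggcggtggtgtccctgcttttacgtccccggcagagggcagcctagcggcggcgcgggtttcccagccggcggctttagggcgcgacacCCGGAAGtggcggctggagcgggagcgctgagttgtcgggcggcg
Tars2 (chr3:95754948-95755097, minus strand): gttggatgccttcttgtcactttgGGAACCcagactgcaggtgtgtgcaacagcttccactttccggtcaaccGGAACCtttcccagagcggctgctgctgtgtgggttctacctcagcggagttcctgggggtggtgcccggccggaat
Trp53rkb (chr2:166793647-166793796, plus strand): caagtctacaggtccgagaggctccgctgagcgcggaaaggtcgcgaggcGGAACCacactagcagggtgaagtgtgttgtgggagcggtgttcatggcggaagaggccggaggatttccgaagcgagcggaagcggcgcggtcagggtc
Zfp580 (chr7:5051412-5051561, plus strand): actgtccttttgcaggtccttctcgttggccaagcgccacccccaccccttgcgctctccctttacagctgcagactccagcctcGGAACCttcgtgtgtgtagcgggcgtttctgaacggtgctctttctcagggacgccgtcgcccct
Hemk1 (chr9:107338321-107338470, minus strand): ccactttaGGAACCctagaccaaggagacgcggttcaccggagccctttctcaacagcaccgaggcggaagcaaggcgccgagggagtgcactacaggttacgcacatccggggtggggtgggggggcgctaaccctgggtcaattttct
Trip4 (chr9:65885144-65885293, minus strand): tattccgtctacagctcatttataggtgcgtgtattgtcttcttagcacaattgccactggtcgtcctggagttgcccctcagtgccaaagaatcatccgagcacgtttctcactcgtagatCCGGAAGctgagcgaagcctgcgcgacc
Mettl9 (chr7:121034325-121034474, plus strand): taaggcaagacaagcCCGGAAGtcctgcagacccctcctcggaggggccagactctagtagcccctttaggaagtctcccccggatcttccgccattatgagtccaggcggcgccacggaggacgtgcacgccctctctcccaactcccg
Ankrd13c (chr3:157946880-157947029, plus strand): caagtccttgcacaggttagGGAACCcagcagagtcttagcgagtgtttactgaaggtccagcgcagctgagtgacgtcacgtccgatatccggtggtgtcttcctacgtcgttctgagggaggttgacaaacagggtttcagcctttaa
The listed start lay 87 bp from the midpoint of the Dcaf10 region, 50 bp from that of Tars2, 18 bp for Trp53rkb, 66 bp for Zfp580, 68 bp for Hemk1, 157 bp for Trip4, 349 bp for Mettl9 and 338 bp for Ankrd13c. In the 150 bases shown, Dcaf10, Trip4 and Mettl9 hold CCGGAAG, and Tars2, Trp53rkb, Zfp580, Hemk1 and Ankrd13c hold GGAACC.

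Starts of 1 gene could differ. Sh2b1 and Nat8f4 each have an inner start with a region and another without any addback peak within 1 kb, and both starts of each gene are given with the one at the region first.
Sh2b1, first start (chr7:126475101-126475250, minus strand): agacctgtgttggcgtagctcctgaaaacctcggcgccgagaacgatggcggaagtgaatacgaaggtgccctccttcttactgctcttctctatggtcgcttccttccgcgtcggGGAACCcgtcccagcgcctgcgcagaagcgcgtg
Sh2b1, second start (chr7:126473065-126473214, minus strand): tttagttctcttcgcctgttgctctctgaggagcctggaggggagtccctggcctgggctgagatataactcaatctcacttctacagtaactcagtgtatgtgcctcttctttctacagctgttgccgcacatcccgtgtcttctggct
Nat8f4, first start (chr6:85904909-85905058, minus strand): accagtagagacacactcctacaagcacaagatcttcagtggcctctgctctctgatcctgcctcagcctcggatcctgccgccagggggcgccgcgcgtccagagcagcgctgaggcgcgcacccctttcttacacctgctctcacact
Nat8f4, second start (chr6:85902504-85902653, minus strand): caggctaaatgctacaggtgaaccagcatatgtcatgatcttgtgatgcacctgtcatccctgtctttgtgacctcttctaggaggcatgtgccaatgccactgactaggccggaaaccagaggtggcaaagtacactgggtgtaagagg
At Sh2b1, which encodes an adaptor of receptor tyrosine kinases, the region at the first start had a −log10 p of 18.3 and 34.7 with SETα and 16.8 and 25.1 with SETβ. Its sequence holds 16 CpG dinucleotides, against 3 in the second start. At Nat8f4 the region had 19.3 and 14.9 with SETα and no peak with SETβ, and the starts held 9 and 1 CpG.

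The strongest region overall lay in Dcaf10, a substrate receptor of CUL4 ubiquitin ligases, at chr4:45341447-45342581. Both SETα libraries listed it with a −log10 p of 101 and 80.3, and both SETβ libraries with 159.6 and 116, at folds of 23.2, 23.1, 29.3 and 25.2 over the local background. The midpoint lay 1038 bp from the gene end, just past the 1 kb limit, and no overexpression library had a peak there. Cops7b, a subunit of the COP9 signalosome, held the second at chr1:86586448-86587498. Values of 102 and 90.0 with SETα and 73.6 and 79.2 with SETβ made it 1 of 2 among the strongest 10 that are not at a listed start, and the nearest start, its own, was 4052 bp away.

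Tars2, the mitochondrial threonyl-tRNA synthetase, had a −log10 p of 52.4 and 50.8 with SETα and 85.7 and 62.7 with SETβ at chr3:95754436-95755418. Trp53rkb, a kinase of the KEOPS tRNA-modifying complex, had 51.1 and 66.0 with SETα and 57.5 and 64.9 with SETβ. The table also lists Trp53rka, a similar gene, and whether reads were split between both was not tested. The zinc finger gene Zfp580 had 53.1 and 59.4 against 52.1 and 40.9. The order of the isoforms differed among these 3 regions. In Tars2 both SETβ values lay above both SETα values, in Zfp580 both lay below them, and in Trp53rkb the values overlapped.

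Hemk1, a methyltransferase of translation release factors, had 33.0 and 37.1 with SETα and 74.4 and 51.8 with SETβ. Trip4, a subunit of the ASC-1 coactivator complex, had 40.6 and 33.5 with SETα and 57.2 and 48.1 with SETβ. The histidine methyltransferase gene Mettl9 had 59.7 and 45.4 with SETα and 62.9 and 45.6 with SETβ. Both SETβ libraries were above both SETα libraries at Hemk1 and Trip4, and the isoforms overlapped at Mettl9. Ankrd13c, with 19.3 and 33.5 for SETα and 48.6 and 37.3 for SETβ, followed. A −log10 p grows with read depth, which is unknown here, so such an order is no comparison of binding between isoforms.

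Mta3, a subunit of the NuRD chromatin remodeller, held the strongest region of all hosts without a listed start. At chr17:83728669-83729428 it lay 22885 bp from the nearest gene end and had 26.5 and 38.7 with SETα and 41.0 and 36.3 with SETβ. Zfp13, a zinc finger gene, held a pair of strong regions 6638 and 13260 bp from its listed start. The nearer had 34.3 and 24.95 with SETα and 33.1 and 33.5 with SETβ, and the farther 25.1 and 21.9 with SETα and 40.1 and 27.5 with SETβ. In Zbtb7a, a transcriptional repressor, the region lay 1433 bp from a listed start, with 20.3 and 17.0 for SETα and 51.2 and 33.0 for SETβ.

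The rest of the 20 strongest all lay at a listed start. Their hosts were Stx18, a SNARE of the endoplasmic reticulum, 4930453N24Rik, Zer1, a substrate receptor of a cullin ubiquitin ligase, Tmem69, Zfp959, Pdss1, an enzyme of coenzyme Q synthesis, and Mnat1, a subunit of the CDK-activating kinase. All 20 were found in each of the 4 addback libraries, and 4930453N24Rik alone had an overexpression peak, in SETα overexpression replicate 2 (−log10 p 3.01).

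**Figure D1:**
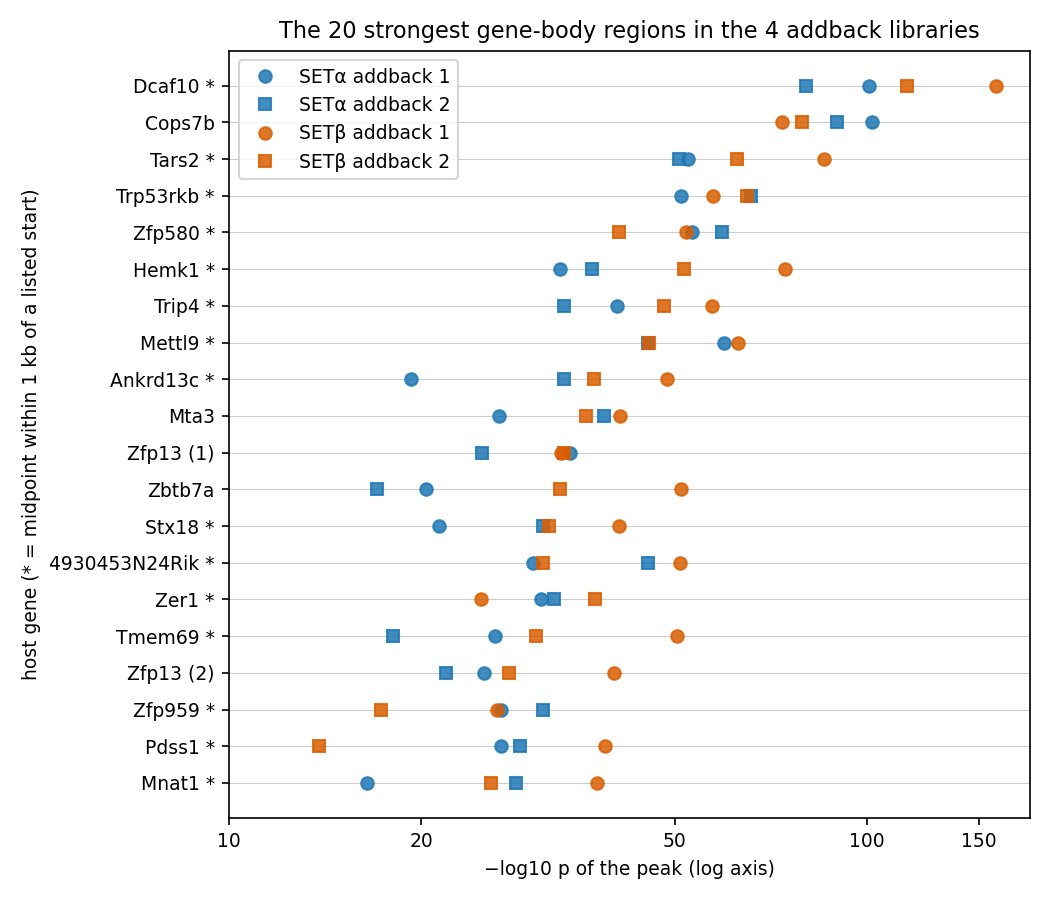
The horizontal log axis gives the −log10 p of the peak in each addback library for the 20 strongest gene-body regions, named by host gene, with circles for replicate 1 and squares for replicate 2 and a star where the midpoint is within 1 kb of a listed start. Values run from 13.8 at Pdss1 in SETβ replicate 2 to 159.6 at Dcaf10 in SETβ replicate 1, and at Trp53rkb and Mettl9 the points of both isoforms overlap.

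Most gene-body regions were weaker than these. The median strength was 4.20, with quartiles of 3.52 and 5.44, against a median of 4.77 in regions at gene ends. A strength of at least 10 was reached by 52 regions, or 5.27%, and by 414 regions at gene ends, or 13.0%. The median width was 515.5 bp, against 643 bp at gene ends. The authors' IDR lists of the addback groups keep peaks that rank alike in both libraries of a group. They overlapped 60 gene-body regions (6.09%), where 12.1% of all reproducible regions overlapped one. Reproducible regions outside coding genes and away from gene ends were similar to those in gene bodies. Their median strength was 4.20 and their median width 474 bp, with 4.2% at a strength of 10 and 6.17% in an IDR list.

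Regions at a listed start stood above the others on each of these measures. Their median strength was 4.77, 8.95% reached a strength of 10 and 10.2% overlapped an IDR peak. Away from listed starts the median was 4.13, with 2.86% at a strength of 10 and 2.86% in an IDR list. In hosts without a listed start the median was 4.14, with 4.83% at a strength of 10 and 6.76% in an IDR list. By rank, 8 of the strongest 10 regions with a usable chromosome were at a listed start, 18 of 25, 28 of 50, 50 of 100 and 89 of 200, and beyond the strongest 200 the share was 30.9%. These shares describe the regions the peaks chose and have no test.

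**Figure D2:**
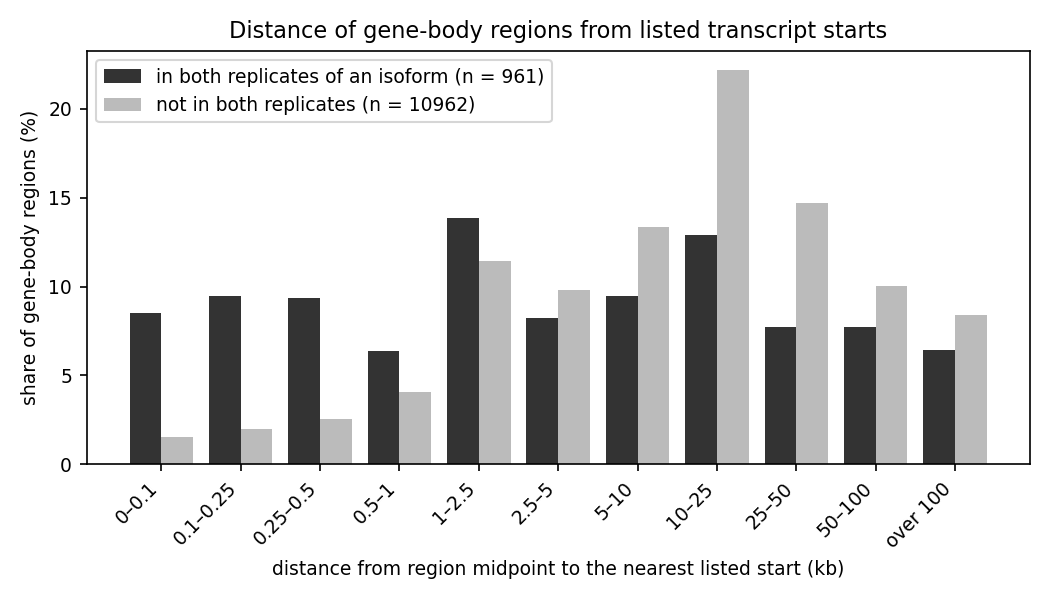
Bars give the share of gene-body regions, in percent, by distance in kb from the region midpoint to the nearest listed start, in black for the 961 reproducible regions and in grey for the 10962 not found in both replicates of an isoform. The first 4 bins, up to 1 kb, hold 82, 91, 90 and 61 reproducible regions and stand above the grey bars, and the order turns beyond 2.5 kb.

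The distance to gene ends showed the same gradient. Of the 986 regions, 398 lay 1 to 2.5 kb from the nearest gene end, 332 at 2.5 to 10 kb, 208 at 10 to 50 kb and 48 farther. The share at a listed start was 42.2%, 32.8%, 18.8% and 16.7% in these classes. Just inside the 1 kb limit lay regions in Trnau1ap at 1001 bp, Tpbgl at 1003 bp and Srrm4 at 1005 bp. Just outside lay Tlx1 at 1000 bp, Hnrnpf at 999 bp and Phlpp1 at 994 bp, with strengths of 3.51, 5.04 and 5.44 against 8.41, 2.86 and 3.52 inside.

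The base composition of listed starts, which the rule did not use, separated those with a region from those without. Of the 3196 inner starts, 356 had a reproducible region within 1 kb (11.1%). The ratio of observed to expected CpG had a median of 0.795 in these and 0.315 in the 2840 without a region. The share with a region was 0.881% at a ratio under 0.3, 7.55% from 0.3 to 0.6, 23.1% from 0.6 to 0.8 and 32.4% from 0.8 up. At starts within 1 kb of a gene end the shares were 0.922%, 8.13%, 26.3% and 35.8%, and in each class the intervals of inner and outer starts overlapped. Overexpression peaks lay at 1.62%, 2.40%, 3.74% and 2.39% of the inner starts in the same classes, and at 1.19%, 2.56%, 4.18% and 5.48% of the outer starts.

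The GC box GGGCGG, bound by Sp1-type factors, was found in the 300 bases of 36.4% of all listed starts, CCGGAAG in 9.09% and GGAACC in 17.0%. A motif of the factor NRF1, the CCAAT box and the TATA box were searched too, and none was more frequent at inner starts with a region. Their shares there were 0.562%, 27.25% and 5.34%, against 0.599%, 35.74% and 12.96% at inner starts without one. At outer starts the shares were 2.31%, 34.88% and 5.12% with a region, against 0.881%, 37.98% and 15.34% without, so only NRF1 was higher. At inner starts with a region of strength 10 or more, of which there were 33, CCGGAAG was present in 39.4% (24.7% to 56.3%) and GGAACC in 60.6% (43.7% to 75.3%). One or the other was in 27 of the 33. The 356 inner starts with a region belong to 302 genes, so starts are not all separate, although the intervals treat them so. Among the 29 gene-body regions of strength 10 or more at a listed start, the nearest start held CCGGAAG in 37.9% and GGAACC in 62.1%. At inner starts without a region the shares were 4.89% and 16.8%, and at those without a region but with a CpG ratio of at least 0.6 they were 11.7% and 19.6%. Below a strength of 10 the share with GGAACC was 16.1%, 17.1% and 17.9% in classes of increasing strength, near the level of starts without a region. For CCGGAAG it was 17.7%, 14.6% and 19.6% in the same classes, above both shares without a region. The GC box was in 45.5% at a strength of 10 or more and in 64.5% to 69.3% of the weaker classes, against 30.6% without a region and 69.4% of those without a region but with a CpG ratio of at least 0.6. Since GGAACC was picked from the strongest starts themselves, its share there is no independent result. Outer starts of the same strength held it in 36.8% (32.8% to 41.1%), against 15.9% of outer starts without a region, and held CCGGAAG in 48.9% against 6.84%. At outer starts without a region but with a CpG ratio of at least 0.6 these shares were 18.2% and 15.7%. A match of letters is a description and does not show a bound site.

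**Figure D3:**
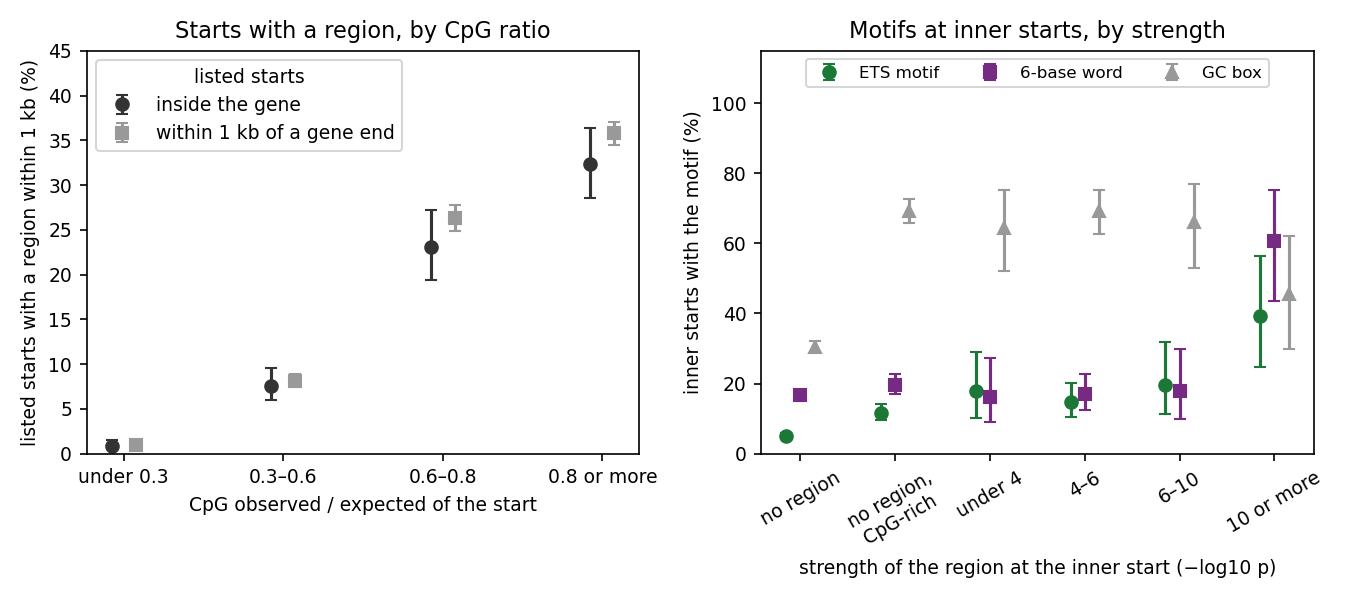
The left panel gives the percentage of listed starts with a reproducible region within 1 kb by the observed to expected CpG ratio, for inner starts (circles) and starts within 1 kb of a gene end (squares), and the right panel the percentage of inner starts holding each motif by the strength of the region there, with Wilson 95% intervals as bars in both. The left panel climbs from 0.881% to 32.4% at inner starts, and on the right the ETS motif and the 6-base word stand at 39.4% and 60.6% in the class of strength 10 or more.

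SETα gave most of the gene-body regions, as it did of all reproducible regions. Both SETα addback libraries had a peak in 938 and both SETβ addback libraries in 155. The pairs shared 107, or 10.9%, where 18.4% of all reproducible regions had both, and 831 had the SETα pair alone and 48 the SETβ pair alone. Of all 4917 reproducible regions, 4683 had the SETα pair and 234 the SETβ pair alone, a similar split. Among the 107 with both pairs 61.7% were at a listed start, against 30.6% with the SETα pair alone and 23.9% with the SETβ pair alone. The SETβ addback lists are shorter, with 2518 and 9771 peaks against 22176 and 15701, and absence from a list is not absence of the protein. The strongest region with the SETβ pair alone lay in Deptor, an inhibitor of mTOR, with 7.53 and 8.52 in SETβ addback and 3.10 in SETα addback replicate 2. Another in Clmp, an adhesion molecule, had 6.61 and 5.96 with SETβ and no SETα peak. Clmp was singled out after its values were seen.

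Whether SETα regions were found again with SETβ was compared within classes of strength, because weak regions are found again less often. Of the 938 regions with the SETα pair, 298 also carried a peak from 1 or both SETβ addback libraries, or 31.8% (28.9% to 34.8%). At gene ends the share was 1460 of 3055, or 47.8%. Within gene bodies it was 49.8% at a listed start and 21.1% away from one. At a strength from 4 to 6 the shares were 45.0% (37.8% to 52.5%) at a listed start, 20.6% (15.8% to 26.5%) away from one and 38.1% (35.7% to 40.6%) at gene ends. From 6 to 10 they were 68.9%, 43.8% and 66.8%. At a strength of at least 20, 14 of 14 regions at a listed start, 3 of 4 away from one and 239 of 240 at gene ends had a SETβ peak. In the other direction, 143 of the 155 regions with the SETβ pair (92.3%) overlapped a SETα addback peak, and 830 of 871 at gene ends did (95.3%). Within gene bodies the share was 98.7% at a listed start and 84.4% away from one. With 2 libraries per isoform, which the rule also used, these differences have no test.

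Members were then looked up in the overexpression libraries, which the rule did not use. Peaks of SETα overexpression overlapped 51 and 74 of the 986 regions, or 5.17% and 7.51%, against 3.86% and 5.78% of all reproducible regions. Peaks of SETβ overexpression overlapped 12 and 32, or 1.22% and 3.25%, against 1.40% and 4.17%. At least 1 of the 4 libraries had a peak in 96 regions (9.74%), where 8.48% of all reproducible regions had one, and both libraries of a group in 49, or 4.97%, against 4.07%. Compared with regions at gene ends, the share was higher by 1.66 percentage points on average (exact two-sided sign-flip permutation test over 4 libraries, p = 0.25, where 4 libraries cannot give 0.05). The difference was highest, at 3.71 points, in SETα overexpression replicate 2 and lowest, at −0.0513 points, in SETβ overexpression replicate 2. Its mean was 0.643 points without the stretch of chromosome 6 described next and 0.359 points once peaks had to reach a −log10 q of 1.3.

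The overlap lay mostly in 1 stretch of the genome. In both SETα overexpression libraries the stretch of chromosome 6 from 118 to 136 Mb is densely filled with peaks, and 65 gene-body regions lie in it. Of these 57 had an overexpression peak, or 87.7%, with 43 and 53 in the SETα libraries and 2 and 4 in the SETβ libraries. Among all reproducible regions in the segment 197 of 218 had one, or 90.4%. Outside the segment 39 of 921 gene-body regions had one (4.24%), against 220 of 4699 reproducible regions (4.68%). The order against all reproducible regions thus turned without the segment. It did not turn against regions at gene ends, which were at 3.37% there, while regions away from coding genes and gene ends were at 11.1%. Both libraries of a group had a peak in 9 of these gene-body regions (0.977%), against 59 of these reproducible regions (1.26%). At a listed start outside the segment, SETα overexpression libraries had peaks at 0 and 1 and SETβ libraries at 0 and 4 of 310 regions. Away from listed starts outside the segment they had peaks at 5 and 11 and at 7 and 15 of 429, and among all 4699 reproducible regions there the shares were 0.873%, 2.04%, 1.26% and 3.68%. A count of 0 of 310 allows a share of up to 0.968% when the limit is set at 3 counts of the total, for counting error only, and the Wilson interval reaches 1.22%.

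Of the 10 strongest regions with peaks in both libraries of an overexpression group, 9 lie in that segment. They were in Parp11, Mical3, Cops7a, Phc1, Prmt8, Vwf, Lpar5, Zfp384 and Pex26. Phc1, a Polycomb subunit, had 9.26 and 9.55 in SETα addback, 4.84 and 8.37 in SETβ addback and 4.33 and 5.29 in SETα overexpression. Prmt8, an arginine methyltransferase, had 8.77 and 8.59 in SETα addback and 5.08 in both SETα overexpression libraries, with no SETβ peak.

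**Figure D4:**
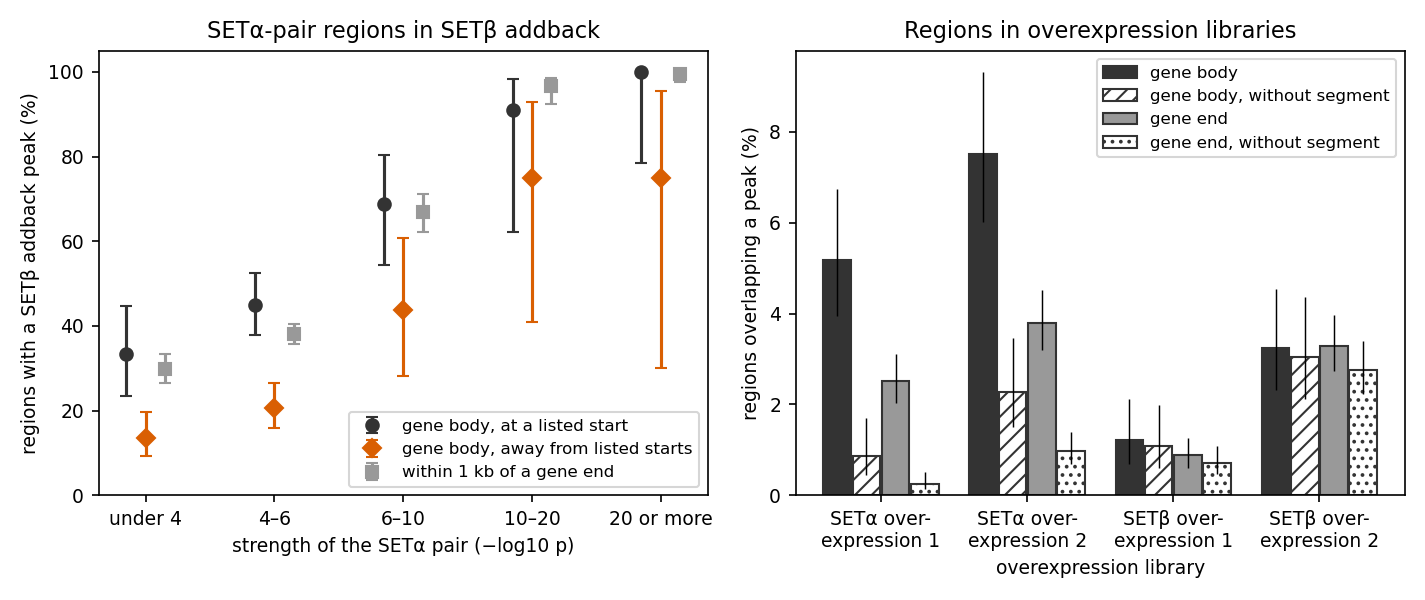
The left panel gives the percentage of SETα-pair regions with a SETβ addback peak by strength of the SETα pair, for gene-body regions at a listed start, those away from one and regions at gene ends, and the right panel the percentage of gene-body and gene-end regions overlapping a peak of each overexpression library with and without the chromosome 6 segment, with Wilson 95% intervals in both. From 4 to 6 the regions away from a start stand at 20.6%, below 45.0% and 38.1%, and the SETα overexpression bars drop from 5.17% and 7.51% to 0.869% and 2.28% without the segment.

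Over libraries, the share of gene-body summits was taken among the strongest 1112 autosomal peaks per library, as many as the shortest list holds, so that lists of unequal length could be compared. These are all of the strongest peaks, whether or not they lie in one of the 986 regions. Gene bodies as defined here cover 37.6% of the autosomes analysed. The share was 17.4% and 13.6% in SETα addback (15.5% ± 2.67, SD, n = 2), 15.2% and 17.6% in SETβ addback (16.4% ± 1.72), 37.6% and 37.3% in SETα overexpression (37.5% ± 0.191) and 25.8% and 24.6% in SETβ overexpression (25.2% ± 0.89). Among these strongest peaks, every addback library lay below every overexpression library. SET KO was lower than SET wild type by a mean difference of −15.4 percentage points, beyond the pooled SD between replicates of 1.65 (exact two-sided permutation test over 8 libraries, p = 0.0556, the smallest possible, so that 0.05 could not be reached). Without the chromosome 6 segment, which held 350 and 356 of the 418 and 415 gene-body summits of SETα overexpression, the difference was −8.33 points with the same p (exact permutation test, p = 0.0556). With all peaks of each library it was −5.29 points (exact permutation test, p = 0.167).

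Between isoforms the share differed by 5.67 points, SETα minus SETβ (exact two-sided permutation test, p = 0.278). It was −0.944 points in SET KO, within the spread between replicates, and 12.3 points in SET wild type. Without the segment the SET wild type difference was −2.49 points and that over both backgrounds −1.74 points (exact permutation test, p = 0.278).

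Among the gene-body summits, those at a listed start made up 28.8% and 47.0% in SETα addback, 46.7% and 32.1% in SETβ addback, 3.61% and 3.62% in SETα overexpression and 1.79% and 3.37% in SETβ overexpression. The groups of SET KO and SET wild type did not overlap. This measure was chosen after the addback regions had been seen to lie at listed starts and uses the same peak lists, so it is a description and has no test. The mean difference was 35.5 percentage points, and the pooled SD between replicates was 8.25. Without the segment it was 37.4 points, and with all peaks of each library 17.4 points.

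**Figure D5:**
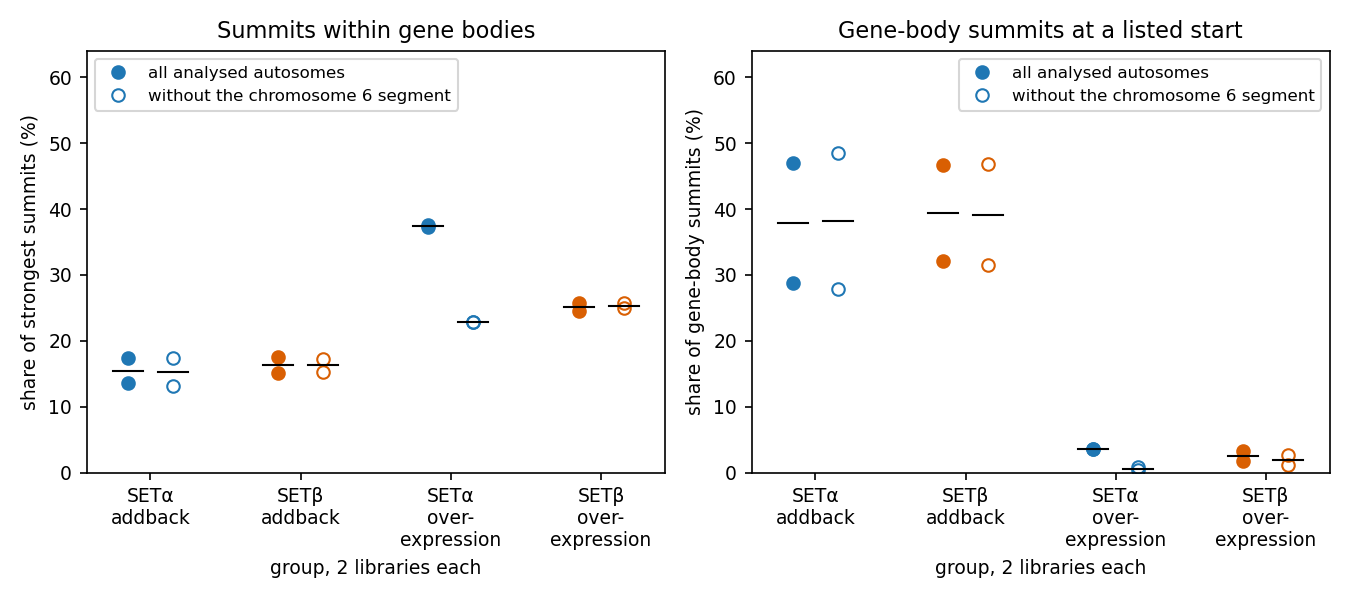
The left panel gives the percentage of the strongest 1112 autosomal summits of each library that lie in gene bodies, and the right panel the percentage of those gene-body summits within 1 kb of a listed start, with 1 point per library, a line at the mean of 2, filled for all analysed autosomes and open without the chromosome 6 segment (strongest 1063 summits). Among the filled points, the addback libraries sit between 13.6% and 17.6% on the left, below the overexpression libraries, and between 28.8% and 47.0% on the right, above them.

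The 986 regions lay in 899 host genes of 15901 coding genes that have any gene body by this rule (5.65%). Of the hosts, 811 had 1 region, 76 had 2 and 12 had 3 or more. Hosts were longer than other genes, with a median of 44820 bp against 21420 bp. Per length, however, regions were densest in short genes, with 8.97 regions per Mb of gene body in genes under 10 kb and 0.538 in genes over 100 kb. The share of genes that were hosts was 2.95% in the shortest class and 11.4% in the longest.

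Hosts had a reproducible region at an own gene end about as often as other genes did, 180 of 899 (20.02%, 17.5% to 22.8%) against 19.7% of both other genes and all genes. Hosts whose regions were at a listed start had one in 13.4%, and the remaining hosts in 23.6% (20.3% to 27.2%). By length, the share in hosts was 28.0% under 10 kb, 23.8% from 10 to 30 kb, 19.3% from 30 to 100 kb and 13.0% above, against 18.1%, 21.2%, 21.2% and 16.0% in other genes.

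Slc2a3, the neuronal-type glucose transporter GLUT3, had 6 regions, more than any other host. They lay between 122742895 and 122769922 on chromosome 6, inside the segment, and all 6 had an overexpression peak. Its strongest had 6.64 and 6.69 in SETα addback, 4.89 in SETβ addback replicate 2, and 3.65 and 7.77 in SETα overexpression. Ninj2, an adhesion protein, had 5 regions with strengths of 3.57 to 6.04, and 4 of them had an overexpression peak. Mical3 and Vwf, with 3 each, also lie in the segment.

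Tnrc18, a large chromatin-associated protein, had 5 regions outside the segment, spread over chr5:142787292-142822332, of which 1 was at a listed start. Their strengths ran from 3.90 to 10.0, all in the SETα pair, and none had an overexpression peak. Casz1, a zinc finger transcription factor, Phf21b, Plec, a cytoskeletal linker, and Ptpn3, a tyrosine phosphatase, had 3 regions each without an overexpression peak. Gm29721 on chromosome 17 had 4, and Zfp978 and Zfp993 on chromosome 4 had 3 each. The last pair belongs to a cluster of similar zinc finger genes, where reads may be split between copies, and likewise the wide regions of Gm40365, Gm40367, Gm36327 and Gm40363, up to 2770 bp, lie side by side on chromosome 6 between 47662927 and 47687004. How such copies were counted was not tested.

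Gene lists were read against the 5.65% of coding genes that were hosts, and gene length goes with that share. Chromatin modifiers had 9 hosts among 44 genes with a gene body (20.5%), with a median gene length of 88.3 kb. They were Kmt2d, an H3K4 methyltransferase, with a strength of 6.50 at a listed start, Arid1b (5.70) and Arid1a (5.05 and 4.20), subunits of BAF remodellers, Chd7 (4.93), Chd2, Dnmt3a, Kdm2b, Ehmt2 and Nsd1. At Kmt2d the −log10 p was 6.88 and 6.50 in SETα addback and 7.63 and 4.31 in SETβ addback. The histone chaperones, the family of SET itself among them, had 2 hosts of 19. Anp32e, which removes H2A.Z, had 5.70 and 6.34 with SETα, and Nap1l4, a relative of SET, had 4.13 and 5.70, with no SETβ peak in either.

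Developmental transcription factors had 7 hosts of 30 (23.3%), led by Meis2 (4.93), Otx2 (4.20), Rfx3 (4.20) and Zeb2 (4.13). Pluripotency genes had 3 of 24, Tbx3 (4.77), Rex2 (4.71) and Gdf3 (3.60). Rex2 lies in the zinc finger cluster of chromosome 4 and Gdf3 in the chromosome 6 segment. Splicing and RNA-binding genes had 6 of 32 (18.8%). Of these Srsf11, a splicing regulator, had 12.8 and 9.18 with SETα and 24.2 and 9.05 with SETβ at a listed start, and U2af2, Rbfox2 and Hnrnpu had 6.90, 6.50 and 6.37. Transcription machinery had 3 of 26, Cdk8 (6.77), Aff1 (6.15) and Gtf2i (4.13).

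DNA replication and repair had 3 of 30, with Ercc1, a nucleotide excision repair endonuclease subunit, at 13.5 and 10.95 for SETα and 8.49 and 8.18 for SETβ at a listed start, and Mcm7 at 4.13 among them. Housekeeping genes had 4 of 25, among them Ywhaz (6.50), Actb (6.43) and Gapdh (4.06). Signalling had 1 of 36, Notch1 (3.51), the ubiquitin system 1 of 28, Nedd4l (2.94), and membrane trafficking 0 of 27. Neuronal adhesion and synapse genes, with a median length of 1116 kb, had 8 of 28 (28.6%), among them Magi1 (5.70), Ptprt (4.20) and Ctnnd2 (3.51), and none of these 8 was at a listed start. The shares of the lists were not tested.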

How the data were processed

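Peak lists of 8 ChIP-seq libraries were used, 2 in each of 4 groups, with 1343 to 22176 peaks each; read depth is unknown. Bowtie2, MACS2 and deepTools and the builds GRCm38 and mm10 are named in the submitters' processing notes, without versions or roles, and the control library is not given in the sources used here. In the deposited lists the authors give each peak's fold, a linear ratio over the local background, and its −log10 p and −log10 q. The deposited IDR lists hold 1 −log10 p per peak for a group. Chromosomes 8 and 11 and the samples without doxycycline were not analysed here.

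Peaks were merged and placed against RefSeq genes of GRCm38.p6 in Python 3.11.15 with pandas 2.3.3, numpy 2.4.6 and scipy 1.17.1. Starts and their 300-base sequences came from RefSeq's promoter table. Hosts were matched to it by gene identifier, and by symbol where a start was counted as that of the host. By identifier, 12697 of 15901 coding genes had a listed start. Figures were drawn with matplotlib 3.10.9. The starts are not complete, and exon or intron positions were not used here. Tests were exact permutations over libraries, with a smallest possible p of 0.0556 for 36 arrangements. Intervals of shares are Wilson intervals at 95% and reflect counting error alone. The placing and testing code was tested on simulated regions. No unit differed from that assumed.

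The text names the 20 strongest regions, hosts with 3 or more regions, the 10 strongest regions with peaks in both libraries of an overexpression group, the leading hosts of each gene list and the 3 regions on either side of the 1 kb limit, apart from a few that are not reported here. The regions and lists were chosen with earlier results of these data known. Alternatives were another window, q threshold, merging, position, gene set, ranking or number of peaks, libraries left out in turn where the result allows, and chromosome 6 or its segment left out.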

Additional observations from a re-analysis of the deposited data

How the results depend on the processing

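Leaving out the chromosome 6 segment, excluding the listed starts and the share at a listed start were chosen after the data were seen, and the cause of each change was not tested unless the setting shows it. The number of gene-body regions was 1499 with a 500 bp window, 588 with 2500 bp, 430 with −log10 q of at least 1.3, 56 with at least 5, and 151 to 939 without 1 addback library, where leaving out SETα addback replicate 1 or 2 (151 and 152) leaves the SETβ pair alone. The share at a listed start was 48.3% and 27.3% with those windows, 42.6% and 57.1% with those thresholds, 38.2% when only ends of coding genes counted, 18.2% within 250 bp, and 33.9% to 50.7% without 1 addback library. SETα minus SETβ in the gene-body share turned to −1.73 points without chromosome 6 and −1.74 without its segment, and was 4.72 to 6.61 without 1 library. SET KO minus SET wild type kept its sign under each setting run, at −16.3 to −14.4 points without 1 library, and was −7.63 without chromosome 6. It was −5.29 with all peaks of each library and −6.25 with a −log10 q of at least 5, where the smallest library kept 12 peaks (exact permutation test, p = 0.167 for both). The difference in overexpression overlap turned to −0.217 points at that threshold, was 0.359 with at least 1.3, 0.378 without chromosome 6, 0.643 without its segment and 2.63 without regions at a listed start, and was 0.982 to 2.24 without 1 library. Hosts minus other genes, 0.312 points for an own gene-end region, turned to −1.45 with a 500 bp window, −0.315 with −log10 q of at least 1.3, −0.0381 by summit and −2.39 without chromosome 6, was 3.88 with at least 5, and 0.0282 to 0.604 without 1 library. For SETα regions with a SETβ peak, gene body minus gene end moved from −16.0 to −5.13 points with −log10 q of at least 5 and was −14.9 to −14.1 without 1 SETβ addback library; SETα libraries, which define these regions, were not left out. The share of gene-body summits at a listed start, SET KO minus SET wild type, was 31.0 to 40.1 points without 1 library, 17.4 with all peaks of each library, 78.6 with −log10 q of at least 1.3 and 62.5 with at least 5, given as a description.

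Replicate numbers are shared between groups. Deviations of the gene-body share per chromosome in same-numbered libraries correlated from −0.319 to 0.405 over 6 pairs of groups, and the labels give no shared batch. The numbers were not used to pair libraries in the main tests. Neither point can exclude a shared batch, so whether the numbers pair the libraries is unknown. In the replicate block, which moves labels within a replicate number, the isoform difference was 5.67 points (exact permutation test, p = 0.375) and the difference between backgrounds was −15.4 points, with the smallest p that 16 arrangements can give. Peak lists give no read depth, so a region absent from a short list cannot be told from one that was not detectable.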
